A study of Mus musculus with 6 samples.

Results

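The cyclin D, CDK and RB pocket protein genes were followed as a set of 10 genes in mouse liver, chosen by symbol with earlier results of these data known. They are the D-type cyclins Ccnd1, Ccnd2 and Ccnd3, the cyclin-dependent kinases Cdk2, Cdk4 and Cdk6, the pocket proteins Rb1, Rbl1 and Rbl2, and the transcription factor E2f4. All 10 were found among the 55573 genes of the deposited table, each with 1 row. The series compared liver polyA RNA of generation 3 mice of 2 genotypes, with 3 libraries each. The control genotype, called DKO, was mTR-/- Wrn-/-, and the other, called p21TKO, was p21-/- mTR-/- Wrn-/-. Both genotypes therefore lacked the RNA template of telomerase (mTR) and the RecQ helicase Wrn, and no library with both genes intact was analysed here. The design text asks which pathways differ once p21 is lost, and describes the p21TKO mice as already progeroid. Strain, sex and age are not spelled out in the labels, whose titles carry the tag 2M. Whether each library stems from a different animal is not said in the labels, so part of the spread behind each p-value may be technical.

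In a dividing cell, mitogens raise the D-type cyclins, which activate CDK4 and CDK6. These kinases, followed by CDK2 with its E- and A-type cyclins, phosphorylate the pocket proteins and release the E2F transcription factors that drive DNA replication genes. p21 (Cdkn1a) inhibits the cyclin-CDK2 complexes and so keeps pocket proteins unphosphorylated. p130 (Rbl2) and p107 (Rbl1), with E2F4 and the MuvB core, form the DREAM complex, which represses cell cycle genes in resting cells. Hepatocytes of adult liver are mostly resting, and cyclin D1 is the D-type cyclin best known for its induction during liver regeneration. Many of these steps act through protein binding and phosphorylation, which RNA levels do not report.

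The FPKM values (reads scaled by exon length and by library total) rested on library totals of 19363286 to 27061292 reads, and mitochondrially encoded genes took 3.66% to 13.0% of reads. Hepatocyte markers such as Alb were high in every library, with a summed level of 37483.1 to 47402.4 FPKM in DKO and 49149.2 to 53487.0 FPKM in p21TKO. Cdkn1a was not lower in the libraries labelled p21TKO. It stood at 0.761, 1.79 and 0.405 FPKM in DKO replicates 1 to 3 and at 1.41, 11.0 and 6.50 FPKM in p21TKO replicates 1 to 3 (log2 difference 1.66, limma adjusted p = 0.523). Which exons were deleted is not stated, so Cdkn1a reads cannot serve as a check, and the genotype of each library is taken from its label. Wrn stood at 0.197 to 0.294 FPKM over the 6 libraries, and Terc (mTR) was listed at 0 in all of them. With no library of intact genes to compare, these polyA values cannot serve as a check either. Y-linked transcripts were present in DKO replicates 2 and 3 and in p21TKO replicate 1 only, so the libraries of a genotype did not all come from the same animal. The first principal component, with 57.2% of the variance, held p21TKO replicates 2 and 3 at scores of 44.4 and 56.6, and the 4 remaining libraries between -34.6 and -7.7.

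No gene of the set differed between the genotypes past the threshold. Of the 10 genes, 8 reached the mean of 1 FPKM needed for testing, and Ccnd2 and Rbl1 did not. Among those 8, 0 were called at an adjusted p under 0.05 (limma on log2(FPKM + 1), Benjamini-Hochberg over 9538 genes), against 0.0734% of all genes tested. At an unadjusted p under 0.05 there was 1 gene, Cdk6, and limma voom on recovered reads called 0 as well. The log2 difference was below 0 for 5 of the 8 and above 0 for 3, with a median of -0.14 beside 0.002 over all genes tested. The 3 values of one genotype lay wholly below those of the other for 1 tested gene, Cdk6, and wholly above for 0. Over all genes tested 8.49% had p21TKO wholly lower and 6.93% wholly higher, so 1 gene in 8 is close to the background.

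**Figure D1:**
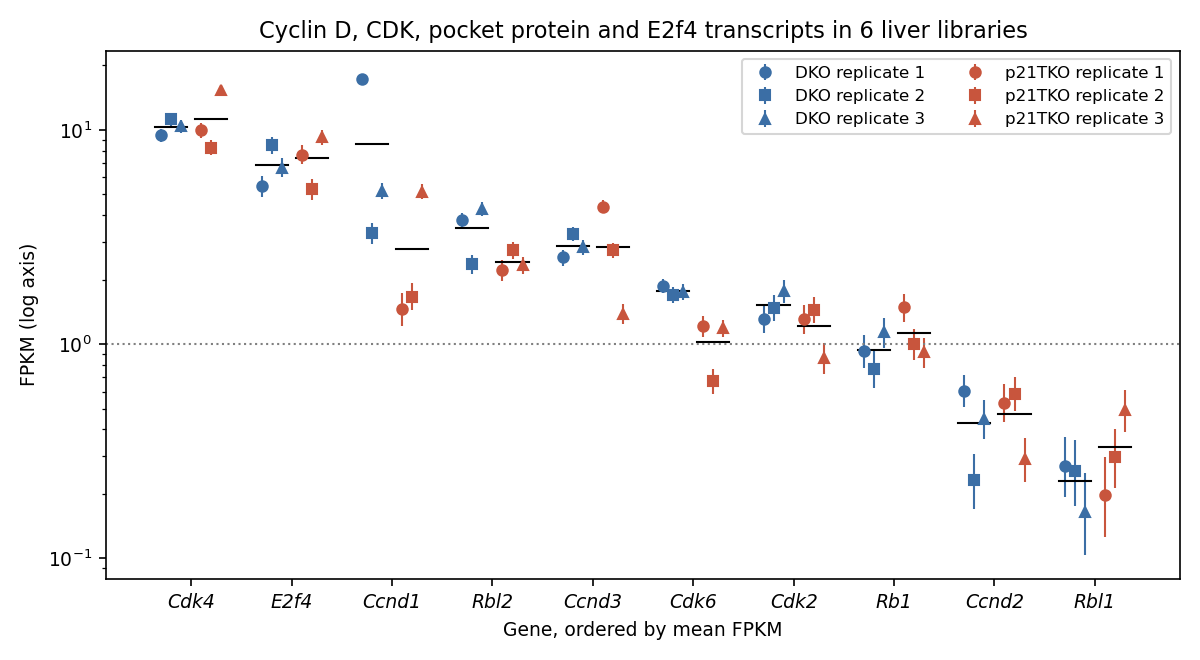
FPKM (log axis) of the 10 genes in each library, with DKO in blue and p21TKO in red, symbols for replicates, 95% Poisson counting intervals as error bars, group means as black lines and the testing limit of 1 FPKM as a dotted line. Ccnd1 spreads most within DKO, from 3.30 to 17.3 FPKM, and Cdk6 is the tested gene whose 2 groups do not overlap.

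The genes spanned a wide range of FPKM. The length used is that of all annotated exons of a gene merged, not that of the transcript expressed. The order between genes is therefore approximate. Cdk4 was highest on average (10.7 FPKM over 6 libraries), followed by E2f4 (7.14 FPKM) and Ccnd1 (5.68 FPKM). Rbl2 (2.96 FPKM) and Ccnd3 (2.86 FPKM) came next, then Cdk6 (1.40 FPKM), Cdk2 (1.36 FPKM) and Rb1 (1.04 FPKM), and Ccnd2 (0.450 FPKM) and Rbl1 (0.280 FPKM) were lowest. Cdk4 exceeded E2f4 in 6 of 6 libraries, Ccnd3 exceeded Cdk6 in 6 of 6, and Rb1 exceeded Ccnd2 in 6 of 6. The other neighbours in this order changed places. Cdk6 exceeded Cdk2 in 3 of 6 libraries, and Ccnd1 ranked anywhere from 1 to 6 among the 10 genes.

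Ccnd1 had the lowest log2 difference of the set, and DKO replicate 1 carried much of it. Ccnd1 encodes cyclin D1 and lies at chr7:144929931-144939925 on the minus strand (ENSMUSG00000070348, GRCm38, GENCODE M21). It stood at 17.3, 3.30 and 5.18 FPKM in DKO replicates 1 to 3 (1955, 334 and 542 reads) and at 1.46, 1.67 and 5.16 FPKM in p21TKO replicates 1 to 3 (133, 181 and 658 reads). DKO replicate 1 was far above every other library, p21TKO replicates 1 and 2 were below all DKO libraries, and p21TKO replicate 3 lay among them. Ccnd1 averaged 8.58 ± 7.59 FPKM in DKO and 2.77 ± 2.08 FPKM in p21TKO (SD, n = 3 each). Taken as log2(FPKM + 1), a scale that makes folds of low genes look smaller, the difference was -1.19 (SE 0.60, 95% interval -2.62 to 0.23, limma adjusted p = 0.546). Without DKO replicate 1 it was -0.58.

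The spread of Ccnd1 within a genotype was 5.24-fold in DKO and 3.54-fold in p21TKO, and it was larger than counting error. The 95% Poisson interval, which covers counting error only, was 16.5 to 18.1 FPKM in DKO replicate 1 and 2.95 to 3.67 FPKM in DKO replicate 2. Among the libraries with Y-linked transcripts, DKO replicates 2 and 3 (3.30 and 5.18 FPKM) were above p21TKO replicate 1 (1.46 FPKM), a log2 difference of -1.07. Among those without, DKO replicate 1 (17.3 FPKM) was above p21TKO replicates 2 and 3 (1.67 and 5.16 FPKM), a log2 difference of -2.17. A fit with a term for Y-linked transcripts gave -1.62 (limma adjusted p = 0.594, with 0.224 to 0.940 over all alternatives). Of the exon bases of Ccnd1, 23.4% are shared with LTO1 on the opposite strand, which stood at 1.16 to 1.79 FPKM. No label gives the strandedness of the counting, so reads from the shared bases cannot be told apart.

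Ccnd3 and Ccnd2, the other D-type cyclins, had overlapping groups. Ccnd3 (chr17:47505051-47599691, plus strand) encodes cyclin D3 and stood at 2.54, 3.27 and 2.83 FPKM in DKO replicates 1 to 3 and at 4.39, 2.74 and 1.39 FPKM in p21TKO replicates 1 to 3. The DKO libraries lay close together, while p21TKO replicate 1 was above and replicate 3 below all of them. Mean levels of 2.88 ± 0.370 and 2.84 ± 1.5 FPKM (SD, n = 3 each) gave a log2 difference of -0.09 (SE 0.30, 95% interval -0.80 to 0.62, limma adjusted p = 0.930). That difference was 0.21 without p21TKO replicate 3 and 0.09 with the term for Y-linked transcripts. Ccnd3 shares 4.11% of its exon bases with Bysl on the opposite strand, which stood at 3.43 to 8.11 FPKM. Ccnd2 (chr6:127125162-127152193, minus strand) was too low to test, at 0.606, 0.232 and 0.450 FPKM in DKO (137, 47 and 94 reads) and 0.532, 0.588 and 0.291 FPKM in p21TKO (97, 127 and 74 reads). High and low values occurred in both genotypes. With no filter on low values its log2 difference was 0.04 (95% interval -0.31 to 0.39, limma adjusted p = 0.918).

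The make-up of the cyclin D transcripts varied widely between libraries of the same genotype. Ccnd1 supplied 84.6%, 48.5% and 61.2% of the summed cyclin D FPKM in DKO replicates 1 to 3 and 22.9%, 33.5% and 75.5% in p21TKO replicates 1 to 3. Ccnd3 was the largest share in p21TKO replicates 1 and 2 (68.8% and 54.8%), while in DKO replicate 2 it was level with Ccnd1 (48.1%). Counted in reads, the Ccnd3 share exceeded that of Ccnd1 in DKO replicate 2 as well (61.9% against 33.4%) and was level with it in DKO replicate 3 (46.5% against 45.6%), so the order there depends on the unit. The sum was 6.80 to 20.4 FPKM in DKO and 5.0 to 6.84 FPKM in p21TKO. The ranges overlapped through p21TKO replicate 3.

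**Figure D2:**
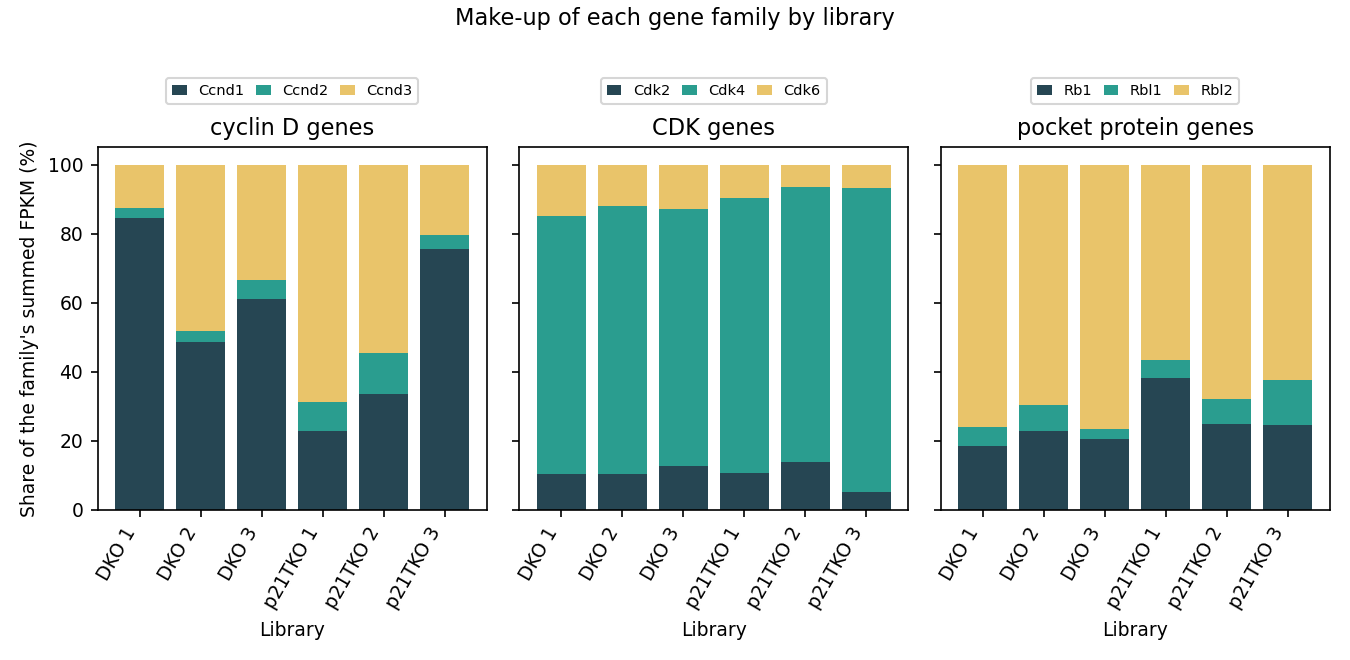
Share of each gene in the summed FPKM of its family, in percent, for each library and for cyclin D, CDK and pocket protein genes. The Ccnd1 share runs from 22.9% to 84.6%, whereas Cdk4 holds 74.6% to 88.2% of the summed CDK FPKM (47.2% to 69.3% of the reads).

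The kinase genes are described with the bases upstream of their RefSeq start sites. Windows of 250 bases before the start were searched. Bases are shown for Cdk6, the gene with separate groups, and for Cdk4, its closest relative, and also for Cdk2 and Rbl1, the genes of the set whose windows held an E2F site. The stretches are chr5:3343789-3343892 and chr10:127063285-127063534 on the plus strand and chr10:128705052-128705179 and chr2:157204535-157204784 on the minus strand (GRCm38.p6), written 5′ to 3′ in the direction of transcription. Those of Cdk6 and Cdk2 are cut to 104 and 128 bases, because the rest of the window reaches an exon of another Cdk6 transcript or of Pmel on the opposite strand (GENCODE M21). Capitals mark a match on either strand to an E2F site (TTTCGCGC or TTTGGCGC or TTTCCCGC), a CHR element (TTTGAA), a TCF/LEF site (CTTTGAT or CTTTGAA, the last of which holds the CHR letters), a GC box (GGGCGG), a CRE (TGACGTCA) or an AP-1 site (TGANTCA).
Cdk6: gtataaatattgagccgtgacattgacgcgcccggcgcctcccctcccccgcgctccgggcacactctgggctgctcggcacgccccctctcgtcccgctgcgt
Cdk4: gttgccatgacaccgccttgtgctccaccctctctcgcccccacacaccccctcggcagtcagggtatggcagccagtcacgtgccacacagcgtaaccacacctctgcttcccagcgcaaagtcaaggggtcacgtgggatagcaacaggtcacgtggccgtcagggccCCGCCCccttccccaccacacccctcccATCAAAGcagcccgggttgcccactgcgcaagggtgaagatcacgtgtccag
Cdk2: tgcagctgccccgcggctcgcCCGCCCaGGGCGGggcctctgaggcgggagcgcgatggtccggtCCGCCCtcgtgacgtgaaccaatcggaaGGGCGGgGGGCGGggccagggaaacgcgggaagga
Rbl1: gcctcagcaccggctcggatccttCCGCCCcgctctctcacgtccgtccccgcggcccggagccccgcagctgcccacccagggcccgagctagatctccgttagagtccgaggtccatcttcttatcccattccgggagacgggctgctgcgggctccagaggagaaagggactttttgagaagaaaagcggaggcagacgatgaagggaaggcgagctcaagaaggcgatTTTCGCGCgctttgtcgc
The Cdk6 window held 0 of these letters, and the Cdk4 window held 1 TCF/LEF site and 1 GC box. Cdk2 had 1 E2F site, 140 to 133 bases before the start and so upstream of the bases shown, and 5 GC boxes. Rbl1 had 1 E2F site, 18 to 11 bases before the start, and 1 GC box. Of 32851 RefSeq windows of the same length, 1.53% held an E2F site, 32.7% a GC box, 7.48% a TCF/LEF site, 16.0% a CHR element, 1.55% a CRE and 6.75% an AP-1 site. Windows were matched for 6 of the 10 genes, and Ccnd1, Ccnd2, Rb1 and E2f4 were not matched. The 2 Ccnd3 windows held GC boxes only (2 and 1), and the Rbl2 window held 1 CHR element. A match is a description of letters and not evidence of binding.

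Cdk6 was the gene of the set with the smallest p, and its values were lower in all libraries labelled p21TKO. Cdk6 encodes a kinase activated by D-type cyclins and lies at chr5:3341485-3531008 (ENSMUSG00000040274, plus strand). It stood at 1.87, 1.69 and 1.75 FPKM in DKO replicates 1 to 3 (629, 510 and 545 reads) and at 1.21, 0.673 and 1.19 FPKM in p21TKO replicates 1 to 3 (327, 216 and 450 reads). The DKO libraries lay within 1.1-fold of each other, and the highest p21TKO library was below the lowest of them. Cdk6 averaged 1.77 ± 0.0902 FPKM in DKO and 1.02 ± 0.303 FPKM in p21TKO (SD, n = 3 each). The log2 difference of -0.47 (SE 0.16, 95% interval -0.86 to -0.07, unadjusted p = 0.0265) did not pass over all genes (limma adjusted p = 0.523), and 9.38% of tested genes had an unadjusted p under 0.05. It was -0.30 within the libraries with Y-linked transcripts, -0.59 within those without, -0.78 with a pseudocount of 0.1, and -0.84 by limma voom on recovered reads.

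The summed level of T, B and NK lymphocyte markers, like Cdk6, was lower in all libraries labelled p21TKO. In bulk tissue, fewer cells of a type and less RNA per cell cannot be told apart. Summed over 12 lymphocyte markers, it was 2.54, 3.42 and 2.25 FPKM in DKO replicates 1 to 3 and 1.42, 1.37 and 0.435 FPKM in p21TKO replicates 1 to 3. All 12 had a lower mean in p21TKO, 7 with separate groups and 5 with overlap, and 0 reached the testing limit. Among 9549 genes below that limit and above 0 in at least 3 libraries, 8.36% were separate and lower in p21TKO and 7.04% separate and higher. For markers that reached the limit, the shares over all genes tested were 8.49% and 6.93%. No background was computed for summed levels. Markers at 0 were Ncr1 in DKO replicate 3, Klrb1c in p21TKO replicate 1, Cd3e and Cd79a in p21TKO replicate 2, and Cd3g, Cd79b and Ms4a1 in p21TKO replicate 3. Neutrophil markers had a higher mean in p21TKO for 10 of 10, 3 separate, but their sums overlapped. The sums were 10.4, 28.7 and 12.4 FPKM in DKO replicates 1 to 3 and 24.7, 553.3 and 220.0 FPKM in p21TKO replicates 1 to 3. The high sums were thus those of p21TKO replicates 2 and 3. Ly6g, Ngp, Camp and Ltf were at 0 in DKO replicate 3. Kupffer cell markers (10 of 10 with a higher mean, 0 separate) summed to 49.7 to 116.3 and 38.2 to 336.5 FPKM, and endothelial markers (10 of 10, 1 separate) to 19.9 to 32.4 and 18.4 to 95.8 FPKM. The Kupffer cell and endothelial sums were lowest of all libraries in p21TKO replicate 1 and highest in p21TKO replicate 2. Stellate cell markers (7 of 9 with a higher mean, 2 separate) summed to 24.5 to 40.4 and 44.5 to 51.4 FPKM, separate as the hepatocyte sums were (5 of 8 with a higher mean, 3 separate). Cholangiocyte markers had a higher mean for 7 of 7, 4 separate, but their sums overlapped (7.07 to 18.7 and 7.11 to 27.7 FPKM). Erythroid markers had a higher mean FPKM for 6 of 7, 0 separate, with overlapping sums (118.9 to 668.7 and 20.4 to 856.1 FPKM). On the log2 scale the direction differed: of 5 tested, 1 lay above 0 and 4 below, with a median of -0.23. The part of any of these cell types in the Cdk6 values was not tested.

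Cdk4, the other kinase partner of the D-type cyclins, showed no separation of the groups. Cdk4 (chr10:127063534-127067920, plus strand) stood at 9.44, 11.2 and 10.4 FPKM in DKO replicates 1 to 3 and at 9.97, 8.27 and 15.3 FPKM in p21TKO replicates 1 to 3. The p21TKO libraries held both the lowest and the highest value. Mean levels of 10.3 ± 0.873 and 11.2 ± 3.65 FPKM (SD, n = 3 each) gave a log2 difference of 0.06 (SE 0.24, 95% interval -0.51 to 0.64, limma adjusted p = 0.939) that was -0.17 without p21TKO replicate 3. Cdk4 shares 19.7% of its exon bases with Tspan31 on the opposite strand, a gene with several times the level of Cdk4. Tspan31 stood at 58.4, 59.4 and 62.2 FPKM in DKO and at 43.4, 48.2 and 26.1 FPKM in p21TKO, lowest in the library where Cdk4 was highest. No source states how reads of the shared bases were assigned. The Cdk4 level is therefore uncertain by an amount that was not estimated, and so are its rank in the set, its shares and its ratios.

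Cdk2, the kinase of the E- and A-type cyclins and the best known target of p21, had overlapping groups. Cdk2 (chr10:128697939-128705031, minus strand) stood at 1.31, 1.48 and 1.77 FPKM in DKO replicates 1 to 3 and at 1.31, 1.45 and 0.862 FPKM in p21TKO replicates 1 to 3. Only p21TKO replicate 3 lay clearly below the DKO libraries. Mean levels of 1.52 ± 0.229 and 1.21 ± 0.308 FPKM (SD, n = 3 each) gave a log2 difference of -0.20 (SE 0.17, 95% interval -0.60 to 0.21, limma adjusted p = 0.691), which was -0.08 without p21TKO replicate 3 and -0.37 by limma voom.

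Within the 3 kinase genes, the balance between Cdk4 and Cdk6 was separate between the genotypes in these libraries. Cdk6 supplied 14.8%, 11.8% and 12.6% of the summed Cdk2, Cdk4 and Cdk6 FPKM in DKO replicates 1 to 3 and 9.67%, 6.47% and 6.87% in p21TKO replicates 1 to 3. Cdk4 supplied 74.6% to 77.9% and 79.6% to 88.2%. The ratio of Cdk4 to Cdk6 FPKM was 5.04, 6.60 and 5.91 in DKO and 8.26, 12.3 and 12.8 in p21TKO. These shares were not tested and follow in part from the Cdk6 values above. Shares and ratios also carry the uncertainty of Cdk4 from its overlap with Tspan31. They add to a whole, so those of Cdk4 and Cdk6 are not independent, and no background was computed for shares. Counted in reads, Cdk6 weighs more, because its merged annotated exons hold 13989 bases against 3249 for Cdk4. The mean Cdk6 share of reads was 36.7% in DKO and 24.5% in p21TKO, and that of Cdk4 was 49.4% and 61.7%.

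Among the pocket proteins, Rbl2 was the most abundant transcript and had the lower mean in p21TKO, with overlapping groups. Rbl2 encodes p130, the pocket protein typical of resting cells (chr8:91070057-91123844, plus strand). It stood at 3.82, 2.36 and 4.28 FPKM in DKO replicates 1 to 3 and at 2.21, 2.76 and 2.34 FPKM in p21TKO replicates 1 to 3. DKO replicates 1 and 3 were above all other libraries, and DKO replicate 2 lay among the p21TKO libraries. Mean levels of 3.48 ± 1.0 and 2.43 ± 0.286 FPKM (SD, n = 3 each) gave a log2 difference of -0.36 (SE 0.20, 95% interval -0.85 to 0.12, limma adjusted p = 0.576). Without DKO replicate 2 it was -0.56, and without DKO replicate 3 it was -0.23.

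Rb1 and Rbl1 had no separation either. Rb1, the retinoblastoma gene (chr14:73183673-73325822, minus strand), stood at 0.927, 0.765 and 1.14 FPKM in DKO replicates 1 to 3 (134, 99 and 152 reads) and at 1.49, 0.999 and 0.915 FPKM in p21TKO replicates 1 to 3 (173, 138 and 149 reads). Only p21TKO replicate 1 was above the DKO libraries. Mean levels of 0.943 ± 0.187 and 1.13 ± 0.308 FPKM (SD, n = 3 each) gave a log2 difference of 0.13 (SE 0.17, 95% interval -0.28 to 0.54, limma adjusted p = 0.796), which was 0.01 without p21TKO replicate 1. Rb1 shares 8.11% of its exon bases with Rcbtb2 and 6.78% with Lpar6, both on the opposite strand and both higher than Rb1 on average. Rbl1 encodes p107, the pocket protein typical of cycling cells (chr2:157145893-157204534, minus strand). It was below the testing limit at 0.271, 0.256 and 0.165 FPKM in DKO (39, 33 and 22 reads) and 0.198, 0.298 and 0.493 FPKM in p21TKO (23, 41 and 80 reads). p21TKO replicate 3 was highest, with a counting interval of 0.391 to 0.614 FPKM against 0.193 to 0.370 FPKM in DKO replicate 1. With no filter on low values the log2 difference of Rbl1 was 0.11 (95% interval -0.13 to 0.35, limma adjusted p = 0.728).

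The shares of Rbl2 and Rb1 in the pocket protein transcripts did not overlap between the genotypes, although the levels of both genes did. Shares within a library add to a whole, so a lower Rbl2 share goes with higher shares of the others. Of all genes tested, 8.49% were separate and lower in level and 6.93% separate and higher. No such background was computed for shares. Rbl2 supplied 76.1%, 69.8% and 76.7% of their summed FPKM in DKO replicates 1 to 3 and 56.7%, 68.0% and 62.4% in p21TKO replicates 1 to 3. Rb1 supplied 18.5% to 22.7% in DKO and 24.4% to 38.2% in p21TKO, and Rbl1 supplied 2.96% to 7.58% and 5.09% to 13.2%. The ratio of Rbl2 to Rb1 FPKM was 4.12, 3.08 and 3.76 in DKO and 1.49, 2.76 and 2.55 in p21TKO. These shares were not tested, and the summed level of 3.38 to 5.58 FPKM in DKO overlapped that of 3.75 to 4.05 FPKM in p21TKO.

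E2f4, the repressor E2F of the DREAM complex, had the second highest FPKM of the set on average. E2f4 (chr8:105297663-105305370, plus strand) stood at 5.47, 8.47 and 6.68 FPKM in DKO replicates 1 to 3 and at 7.67, 5.28 and 9.25 FPKM in p21TKO replicates 1 to 3. The groups overlapped throughout. Mean levels of 6.87 ± 1.51 and 7.40 ± 2.0 FPKM (SD, n = 3 each) gave a log2 difference of 0.08 (SE 0.24, 95% interval -0.50 to 0.66, limma adjusted p = 0.918), which was -0.05 without DKO replicate 1 and -0.08 without p21TKO replicate 3. In FPKM, E2f4 exceeded its partner Rbl2 in every library, at ratios of 1.43, 3.60 and 1.56 in DKO and 3.47, 1.92 and 3.96 in p21TKO. This order depends on the unit, as DKO replicate 1 held 322 reads of E2f4 and 693 of Rbl2.

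**Figure D3:**
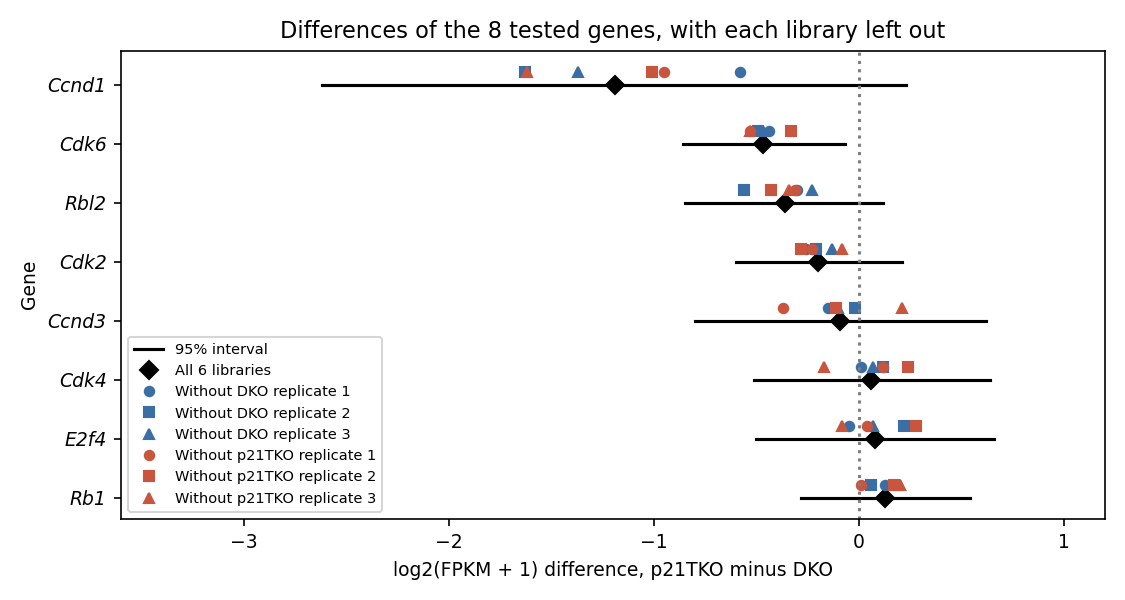
Difference of each tested gene, p21TKO minus DKO, on the log2(FPKM + 1) scale, with the value from all 6 libraries as a diamond, its 95% limma interval as a bar and the values with 1 library left out as small symbols above it. Ccnd1 moves from -1.63 to -0.58 with the library left out, and the differences of Ccnd3, Cdk4 and E2f4 lie on both sides of 0.

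The libraries with and without Y-linked transcripts were also read separately, with 3 libraries in each and no test. Ccnd1, Cdk2, Cdk6 and Rbl2 lay below 0 within both, at -0.18 and -0.11 for Cdk2 and -0.39 and -0.44 for Rbl2. Rb1 and E2f4 lay above 0 within both, at 0.36 and 0.02 for Rb1 and 0.02 and 0.31 for E2f4. The sign differed for Ccnd3, at 0.41 with and -0.24 without Y-linked transcripts, and for Cdk4, at -0.10 with and 0.23 without.

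The genes of the set did not vary as a block across the 6 libraries. p21TKO replicate 3 held the highest value of Cdk4, E2f4 and Rbl1 and the lowest of Ccnd3 and Cdk2, so it was at an extreme for 5 of the 10 genes. p21TKO replicate 1 held the highest Ccnd3 and Rb1 and the lowest Ccnd1 and Rbl2. Cdk4 and E2f4 both had their lowest value in p21TKO replicate 2 and their highest in p21TKO replicate 3 (Pearson r = 0.86 over the 6 libraries). Cdk2 and Rbl1 ran in opposite directions (r = -0.89 over the 6 libraries). Ccnd1 had r = 0.69 with Cdk6 and 0.64 with Rbl2. These coefficients describe 6 libraries that share 2 genotypes and unequal depth.

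Among all genes tested, the closest pattern to Ccnd1 was that of Acot4, a peroxisomal acyl-CoA thioesterase gene (r = 0.985 over 6 libraries). Acot4 stood at 20.4, 5.18 and 6.84 FPKM in DKO replicates 1 to 3 and at 3.88, 3.21 and 6.74 FPKM in p21TKO replicates 1 to 3. Rbl2 was closest to Ppara, the nuclear receptor gene for fatty acid oxidation (r = 0.997). Ppara stood at 25.5, 9.72 and 31.0 FPKM in DKO and at 9.25, 13.1 and 9.04 FPKM in p21TKO, with the 2 high values in DKO replicates 1 and 3 as for Rbl2. The closest genes to the others were Zfp825 for Cdk6 (0.993), Srsf3 for Cdk4 (0.99), Snap47 for Cdk2 (0.996), Mcoln1 for Ccnd3 (0.993), Ptdss1 for Ccnd2 (0.954), Bod1 for Rb1 (0.976), Stimate for Rbl1 (0.993) and Ciapin1 for E2f4 (0.991). Between 1 and 51 tested genes had an r of at least 0.95 with each gene of the set. Each closest gene had the highest r among 9538 tested genes over only 6 libraries. Such an r describes a pattern, and a link between the genes was not tested.

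The other genes of the pathway were read from 9 lists, in which 59 of 121 genes were expressed enough to test. Of these, 0 were called in either direction (limma, adjusted over 9538 genes), and limma voom called 0 as well. At an unadjusted p under 0.05 there were 4. The log2 difference was above 0 for 30 and below 0 for 29, with a median of 0.01 beside 0.002 over all genes tested. The groups were separate and lower in p21TKO for 4 (6.78%, against 8.49% of all genes tested) and separate and higher for 2 (3.39%, against 6.93%). Without p21TKO replicate 1, 2 of these genes were called, among them Cdkn1a (2.32, limma adjusted p = 0.0224), and no other alternative called any of them.

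**Figure D4:**
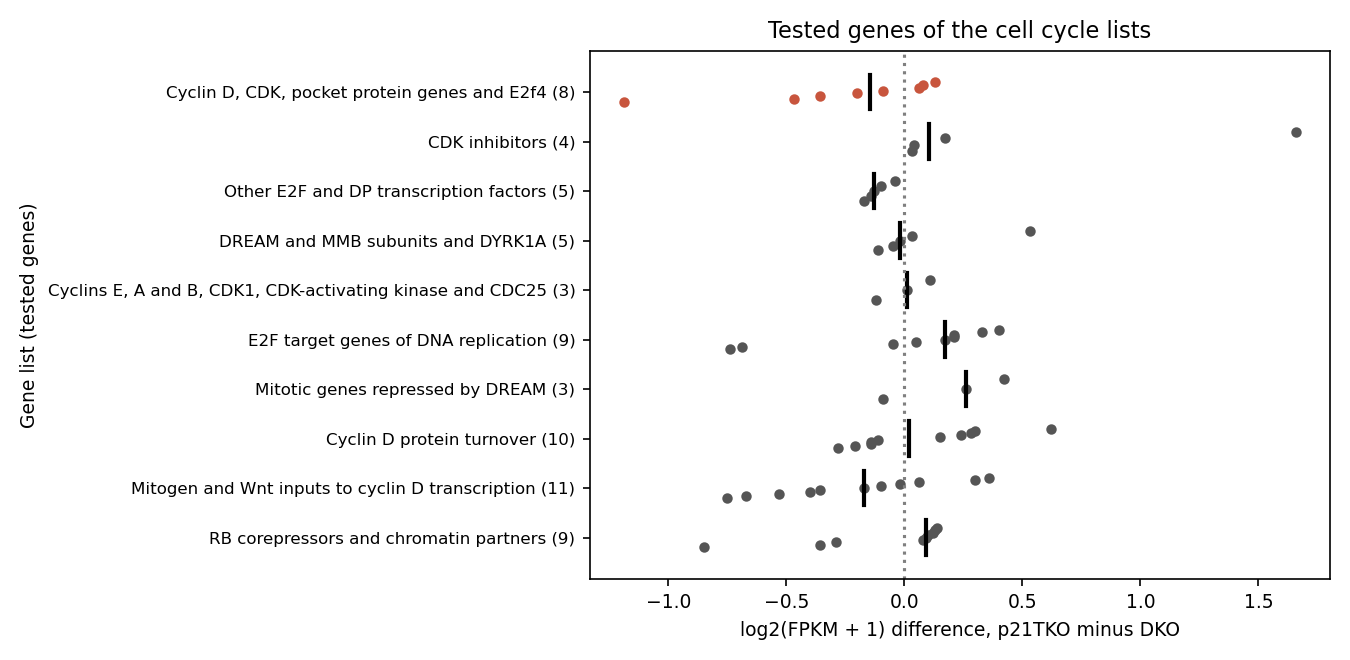
Difference on the log2(FPKM + 1) scale, p21TKO minus DKO, of each tested gene (points) and list median (black bars) for the cyclin D, CDK and pocket protein set (red) and the 9 other cell cycle lists (grey), with the number of tested genes in brackets. List medians lie between -0.17 and 0.26, and Cdkn1a is the grey point at 1.66.

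Upstream of the kinases, 4 of 7 CDK inhibitor genes were tested, all 4 with a log2 difference above 0 and 0 called. Besides Cdkn1a, p27 (Cdkn1b) averaged 4.43 ± 0.550 FPKM in DKO against 5.09 ± 0.272 FPKM in p21TKO, and Cdkn2c 3.15 ± 0.929 and 3.24 ± 0.763 FPKM (SD, n = 3 each). Of the genes that feed cyclin D transcription, 11 of 13 were tested, 3 above and 8 below 0, with 0 called and a median of -0.17. They included the growth factor receptor gene Met at 11.5 ± 3.45 and 7.65 ± 2.14 FPKM, the Wnt effector Tcf7l2 at 1.70 ± 0.157 and 1.2 ± 0.811 FPKM, and Myc at 6.56 ± 5.0 and 2.78 ± 1.72 FPKM. The groups of Met, Tcf7l2 and Myc overlapped. Of the genes for cyclin D protein turnover, 10 of 11 were tested, 5 above and 5 below 0, and 0 were called. Fbxo31, a ubiquitin ligase subunit reported to target cyclin D1, stood at 9.25, 12.5 and 10.7 FPKM in DKO and at 13.0, 21.9 and 17.2 FPKM in p21TKO, with separate groups (log2 difference 0.62, limma adjusted p = 0.523). Fbxo4 and Skp1a, the next by p in that list, had differences of 0.30 and -0.28.

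Among partners of the pocket proteins, 5 of 8 DREAM and MMB genes were tested, 2 above and 3 below 0, with 0 called. Lin37, a MuvB subunit needed for DREAM repression, stood at 2.31, 3.45 and 3.08 FPKM in DKO and at 5.40, 4.99 and 3.67 FPKM in p21TKO, with separate groups (log2 difference 0.53, limma adjusted p = 0.523). The other tested genes of that list lay between -0.11 and 0.03. All 5 tested members of the other E2F and DP genes had values below 0 (-0.17 to -0.04), 0 called, with Tfdp2, E2f6 and E2f5 the lowest by p. Of the RB corepressors and chromatin partners, 9 of 10 were tested, 6 above and 3 below 0, with 0 called and 3 of the 9 separate and lower, against 8.49% of all genes tested. These 3 were Smarca2, a SWI/SNF ATPase gene, at 6.51 ± 1.11 and 3.37 ± 1.69 FPKM (log2 difference -0.85, limma adjusted p = 0.523), Arid4a at 2.74 ± 0.284 and 1.93 ± 0.446 FPKM, and Kdm5a at 1.88 ± 0.450 and 1.34 ± 0.0406 FPKM (SD, n = 3 each).

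Downstream, few cell cycle genes were expressed enough to test in this tissue. Of 21 mitotic genes that DREAM represses, 3 were tested, 2 above and 1 below 0, with 0 called. Those 3 were the CDK-binding genes Cks2 (log2 difference 0.26) and Cks1b (0.42) and the kinase gene Aurka (-0.09). Of 30 E2F target genes of DNA replication, 9 were tested, 6 above and 3 below 0, with 0 called. Pcna, the sliding clamp of DNA polymerase, stood at 9.04 ± 0.892 and 12.5 ± 3.51 FPKM, while Tk1, a nucleotide salvage kinase, stood at 4.16 ± 0.294 against 2.63 ± 2.48 FPKM (SD, n = 3 each). The groups of Pcna and Tk1 overlapped. Of 12 genes for cyclins E, A and B, CDK1, the CDK-activating kinase and CDC25, 3 were tested, all of the CDK-activating kinase, with 0 called. Ccnh, its cyclin, was separate and lower at 4.96 ± 0.162 and 4.47 ± 0.176 FPKM (log2 difference -0.12, limma adjusted p = 0.743), and Cdk7 and Mnat1 had differences of 0.11 and 0.01.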

How the data were processed

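The deposited table gives FPKM per gene for 6 polyA liver libraries, made by the authors. The submitters' processing notes name CASAVA 1.8 and fastp for the reads, HISAT2 (2.0.5) as aligner, featureCounts (1.5.0-p3) as counter, DESeq2 (1.20.0), and the human builds GRCh38 and hg38 although the gene identifiers are mouse. Per the labels' protocols, RNA came from TRIzol extraction and a NEBNext Ultra kit. FPKM times the union exon length of GENCODE M21 (found for 55480 genes, not for 93) gave whole reads within 0.02 for 99.3% of values in each library, and hence read numbers and library totals. Groups were taken from sample titles.

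The two-sided test was limma (version 3.58.1, run in R 4.3.3, with a mean-variance trend) on FPKM plus a pseudocount of 1 after taking log2. It covered genes whose FPKM averaged 1 or more, with Benjamini-Hochberg adjustment over all of them, and the script was tested on simulated data. Counting intervals are 95% Poisson. Alternatives were other pseudocounts, filters, scalings, variance models, a replicate block, a term for Y-linked transcripts, limma voom on recovered reads and leaving out each library. The text names all 10 genes, Cdkn1a, up to 3 genes per list with the smallest p, and for each gene of the set the tested gene with the highest r. A gene that this rule takes is not reported here. The genes of the set and the lists were chosen with earlier results of these data known, and the ratios after the values were seen. Promoter sequences are from RefSeq (GRCm38.p6). Scripts ran in Python 3.11.15 with scipy 1.17.1, and figures were drawn with matplotlib 3.10.9.

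Transcripts of the set were compared with all GENCODE M21 transcripts (BLAST 2.17.0, at least 90% identity over at least 200 bases). Copies such as Ccnd3-ps stood at no more than 0.0317 FPKM, and the other matches were genes that overlap on the opposite strand.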

Additional observations from a re-analysis of the deposited data

How the results depend on the processing

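The count of 0 called genes in the set held under all 19 alternatives, and so did the direction of Ccnd1 (-1.63 to -0.58), Cdk6 (-0.84 to -0.33), Rbl2 (-0.56 to -0.23), Cdk2 (-0.37 to -0.08) and Rb1 (0.01 to 0.23) wherever they were tested. Array quality weights gave the smallest adjusted p for Cdk6 (0.112) and Ccnd1 (0.224). The difference changed sign for Ccnd3 with a term for Y-linked transcripts (0.09) and for Cdk4 with array quality weights (-0.02). Leaving out 1 library gave -0.37 to 0.21 for Ccnd3, -0.17 to 0.24 for Cdk4 and -0.08 to 0.28 for E2f4, and 0 to 2 called genes in the pathway lists. The cause was not tested.

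Over all genes, 7 were called, against 495 without p21TKO replicate 1, 21 with array weights, 4 at a mean FPKM of at least 5, 1 with no filter, 1 with voom, and 4, 1, 2 and 3 without DKO replicates 1 or 3 or p21TKO replicates 2 or 3. The replicate block gave 0 calls in the set and 0 over all genes. Same-numbered libraries did not deviate together (r = -0.439, -0.487 and -0.072). With so few libraries, and with Y-linked transcripts unequal within each same-numbered pair, these values cannot decide whether the numbers pair libraries. Of 72 alternative values of the family shares, 8 moved by more than 1 SD, all from reads in place of FPKM. At 22 to 80 reads per library, as for Rbl1, counting error limits what can be seen.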

Other observations

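Of the 62 pathway genes below the testing limit, 4 had all p21TKO libraries above and 5 had all below the DKO libraries. Of these 62, 58 were above 0 in at least 3 libraries, as separate groups need, and among all 9549 such genes 7.04% were separate and higher and 8.36% separate and lower, so both counts are close to the background. They are named here after their values were seen and were not tested. Mcm6, a subunit of the replicative helicase, stood at 0.161, 0.0996 and 0.0386 FPKM in DKO replicates 1 to 3 (18, 10 and 4 reads) and at 0.398, 1.35 and 1.46 FPKM in p21TKO replicates 1 to 3 (36, 145 and 184 reads). Foxm1, a mitotic transcription factor, held 5, 3 and 5 reads in DKO and 10, 17 and 19 in p21TKO, and Kif23 and E2f7 held at most 15 reads in any library. In the other direction, Rrm2, the regulated subunit of ribonucleotide reductase, had DKO values of 1.07, 0.805 and 1.02 FPKM (71, 48 and 63 reads) and p21TKO values of 0.503, 0.267 and 0.627 FPKM (27, 17 and 47 reads). Pola1, the catalytic subunit of DNA polymerase alpha, stood at 0.326, 0.232 and 0.260 FPKM and at 0.105, 0.173 and 0.0797 FPKM in the same order. Lin9, a MuvB subunit, stood at 0.592, 0.449 and 0.410 FPKM and at 0.392, 0.289 and 0.245 FPKM, and Cdc6 and Orc1 held at most 8 reads in any library.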
